A study of Mus musculus with 39 samples.

Results

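The regions described here were stretches of chromatin in mouse cKIT+ spermatogonia that were called open by ATAC-seq and were also covered by a peak of H3K27me3, histone H3 trimethylated at lysine 27. They were selected on the deposited peak calls of both assays. The ATAC peaks of 5 libraries were merged into 52246 regions, and a region was kept when at least 3 of the 5 ATAC libraries and at least 3 of the 5 H3K27me3 libraries had a peak that overlapped it by 1 bp or more. Of the 19923 regions open in at least 3 ATAC libraries, 1639 (8.23%) met the rule and are called members. Another 17076 (85.7%) had no H3K27me3 peak in any library and are called open unmarked regions, and 1208 (6.06%) had one in 1 or 2 libraries.

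ATAC-seq maps DNA that a transposase can reach, and CUT&Tag maps a chromatin mark by tethering the transposase to an antibody. Both were made from cells sorted for cKIT, the receptor that marks differentiating spermatogonia, with 100000 cells per ATAC library and 50000 per CUT&Tag library. Control males were Kdm6a fl/y; Cre-, and conditional knockout (cKO) males were Kdm6a fl/y; Ddx4-Cre+. The floxed allele of the X-linked gene Kdm6a was therefore carried by both groups, and Cre was driven by the germ-cell gene Ddx4 in cKO males. Each assay had 2 control and 3 cKO libraries, numbered as in the labels, and 1 CUT&Tag library was made with a non-specific IgG antibody from control cells. RNA of single cells from whole testis was counted in 1 control and 1 cKO library. No age is given in the sources used here. The labels do not say whether libraries came from separate males, so p-values measure only the spread between these samples, which may be technical.

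H3K27me3 is written by Polycomb repressive complex 2 and is a mark of genes held silent, above all developmental regulators whose promoters are rich in CpG. KDM6A (UTX) is a demethylase that can remove it. Promoters that carry H3K27me3 while they remain accessible have been described in stem cells and germ cells, often together with the active mark H3K4me3, which was not analysed here.

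The promoters of 5 genes show what the members looked like at the sequence level. They cover a gene at which cells were sorted (Kit), the gene at members with the most RNA in spermatogonia (Uchl1), a gene of undifferentiated spermatogonia (Id4), and developmental regulators with almost no RNA in these cells (Hoxd10 and Cdx2). Each is the RefSeq promoter on GRCm38.p6, the same assembly as mm10, from 250 bases before to 50 after the gene start, written 5′ to 3′ on the gene's strand with every CG dinucleotide in capitals. Kit is on the plus strand at chr5:75574737-75575036, Uchl1 on the plus strand at chr5:66675871-66676170, Id4 on the plus strand at chr13:48260866-48261165, Hoxd10 on the plus strand at chr2:74691641-74691940 and Cdx2 on the minus strand at chr5:147307200-147307499.
Kit: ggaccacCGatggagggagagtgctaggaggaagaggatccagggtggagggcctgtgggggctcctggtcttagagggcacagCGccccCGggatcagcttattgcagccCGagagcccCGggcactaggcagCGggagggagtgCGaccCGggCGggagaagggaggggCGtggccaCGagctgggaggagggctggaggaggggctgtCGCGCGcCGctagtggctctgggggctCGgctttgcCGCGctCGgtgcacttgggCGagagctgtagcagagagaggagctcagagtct
Uchl1: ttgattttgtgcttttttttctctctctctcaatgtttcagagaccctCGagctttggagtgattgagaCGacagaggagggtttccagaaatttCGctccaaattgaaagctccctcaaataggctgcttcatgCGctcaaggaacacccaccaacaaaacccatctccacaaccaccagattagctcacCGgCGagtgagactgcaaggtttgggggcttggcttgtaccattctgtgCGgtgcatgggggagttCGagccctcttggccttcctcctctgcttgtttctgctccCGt
Id4: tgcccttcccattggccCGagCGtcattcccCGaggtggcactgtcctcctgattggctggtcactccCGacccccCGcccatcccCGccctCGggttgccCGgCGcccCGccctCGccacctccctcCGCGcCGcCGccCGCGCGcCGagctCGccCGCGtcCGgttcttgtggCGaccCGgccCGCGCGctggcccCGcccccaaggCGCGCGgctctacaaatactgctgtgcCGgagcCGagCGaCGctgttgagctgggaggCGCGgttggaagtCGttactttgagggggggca
Hoxd10: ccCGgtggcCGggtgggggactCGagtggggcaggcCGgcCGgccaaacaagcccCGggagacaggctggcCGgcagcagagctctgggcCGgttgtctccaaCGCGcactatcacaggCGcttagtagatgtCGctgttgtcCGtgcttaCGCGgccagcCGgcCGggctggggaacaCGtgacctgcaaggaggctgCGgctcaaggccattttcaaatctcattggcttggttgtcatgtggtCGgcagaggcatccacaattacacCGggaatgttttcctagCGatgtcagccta
Cdx2: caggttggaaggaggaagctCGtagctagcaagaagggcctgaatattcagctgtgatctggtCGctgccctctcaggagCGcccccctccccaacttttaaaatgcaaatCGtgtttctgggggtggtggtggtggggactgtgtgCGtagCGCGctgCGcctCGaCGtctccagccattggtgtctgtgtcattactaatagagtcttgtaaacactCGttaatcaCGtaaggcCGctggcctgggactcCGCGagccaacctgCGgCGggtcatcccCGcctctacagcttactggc
The Kit, Id4 and Hoxd10 windows lay wholly inside their member, with 300 bases each, whereas 159 bases of the Uchl1 window and 55 of the Cdx2 window did. Id4 held 39 CG dinucleotides and Uchl1 held 9, so CpG density varied widely among genes that shared both peaks. The ratio of observed CG to that given by the base composition was 0.99 for Id4, 0.75 for Hoxd10, 0.73 for Cdx2, 0.62 for Kit and 0.47 for Uchl1.

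Before the results, some properties of the libraries need stating. The ATAC libraries differed in how many peaks were called, with 19118 and 33250 in control 1 and 2, and 14635, 18883 and 40497 in cKO 1, 2 and 3. Peak lists hold no read totals, so the depth of these libraries is unknown. The peak names inside the list of ATAC cKO 1 carry the prefix of the control 1 list, although its coordinates differ, so results were also computed without it. Of the H3K27me3 lists, with 11118 to 18494 peaks, 4 are named as downsampled and that of cKO 2 is not. The targeted gene was checked by RNA in the single-cell libraries, where the spermatogonia-like cells held 46 UMIs of Kdm6a in the control and 12 in the cKO library (23.2 and 8.68 CPM, UMIs scaled to 1000000 per cell class and library). The early spermatocyte-like cells held 157 and 10. The 3′ tag may lie outside the deleted part.

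Few members were found in every library. All 10 libraries had a peak at 156 members (9.52%). All 5 H3K27me3 libraries marked 783 members (47.8%), 481 were marked in 4 and 375 in 3. All 5 ATAC libraries opened 348 members (21.2%), against 7985 (46.8%) of the open unmarked regions. The libraries with the most peaks carried membership. ATAC control 2 had a peak at 98.5% of members and cKO 3 at 98.1%, whereas control 1 and cKO 2 reached 68.7% and 69.0%, and cKO 1 reached 39.2%. The most frequent ATAC pattern was a peak in control 1, control 2 and cKO 3 alone, at 367 members (22.4%). Without ATAC control 2 the rule found 872 members, without ATAC cKO 3 it found 864, and without cKO 1 it found 1519, with regions merged anew each time. For H3K27me3, the shares of members with a peak were 91.1% and 96.6% in the controls and 61.1%, 80.4% and 95.6% in cKO 1, 2 and 3. The rule lets 3 cKO libraries make a member without the controls but not the reverse, and 10 members had no ATAC peak and 4 no H3K27me3 peak in either control.

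The threshold cut through a continuous range. The 174 members with exactly 3 libraries in each assay had a median ATAC fold enrichment of 3.56 over the peak caller's background and a median H3K27me3 signal of 28.6 per base. Just outside, the 1486 regions with 2 ATAC libraries had 3.38 and 37.1, and the 448 with 2 H3K27me3 libraries had 3.88 and 26.2. The 156 members found in all 10 libraries had 3.84 and 44.9. These values come from the calls that chose the members and are given as a description. The H3K27me3 signal was averaged over the full length of the overlapping peaks. It thus also covers bases outside the member and can vary with the length called. An IgG peak overlapped 68 members (4.15%) and 0 of the 17076 open unmarked regions, and it overlapped 505 (10.3%) of the 4906 H3K27me3 regions without an ATAC peak.

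A member was a small opening within a wider marked domain. The median member spanned 1132 bp, with quartiles of 791.5 and 1529.5 bp, and the median open unmarked region 942 bp. H3K27me3 peaks of at least 3 libraries covered 994 members (60.6%) from end to end. At the centre of members, ATAC peaks covered 27.2% to 94.1% of them depending on the library, and at 1 kb to either side 1.16% to 7.38%. H3K27me3 peaks covered 46.5% to 89.0% at the centre and still 14.2% to 37.1% at 5 kb to the right. The H3K27me3 peak over a member had a median length of 3192 and 4823 bp in the controls and 1760, 1999 and 4579 bp in cKO 1, 2 and 3, so the lengths of both groups overlapped. The member took up on average 26.6% to 47.8% of that peak, yet the point of highest H3K27me3 signal fell inside the member at 55.3% to 68.2% of them. Opening and mark were called on different cells of a sorted population, so whether they lie on the same chromosome copy was not tested.

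**Figure D1:**
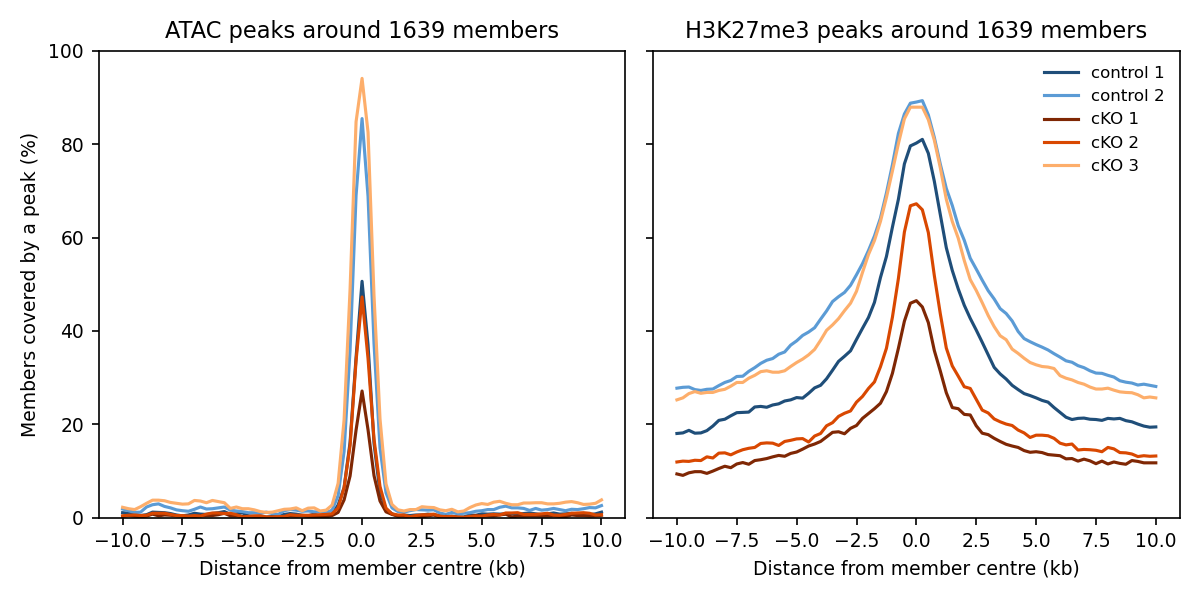
Share of the 1639 members covered by an ATAC peak (left) or an H3K27me3 peak (right), in percent, against distance from the member's centre in kb, with 1 line per library. ATAC coverage falls from at most 94.1% at the centre to at most 7.38% at 1 kb, while H3K27me3 coverage at 5 kb to the right is still 14.2% to 37.1%.

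H3K27me3 regions that held a member had longer peaks and higher signal than those without an ATAC peak. H3K27me3 regions with an ATAC peak but no member were not compared. Members were chosen by overlap of the 2 peak types, which a longer H3K27me3 region meets more easily, so these values are a description. Of 9699 merged H3K27me3 regions found in at least 3 libraries, 1576 (16.2%) held a member and 4906 (50.6%) had no ATAC peak at all. Over regions marked in all 5 libraries, the median H3K27me3 signal per base at 1001 regions that held a member was 41.5 and 32.7 in the controls and 53.5, 41.9 and 39.0 in cKO 1, 2 and 3. The 1547 such regions without an ATAC peak had 32.7, 26.5, 46.0, 35.2 and 30.8 in the same order. Regions with a member were thus higher than those without an ATAC peak in each of the 5 libraries. Their peaks were also longer, with a median of 3950 and 5176 bp in the controls and 2465, 2778.5 and 4826.5 bp in cKO 1, 2 and 3, against 2798, 4042, 1674, 1886 and 3854 bp without an ATAC peak. The log2 difference was 0.32 ± 0.03 (SD, n = 2) in controls and 0.27 ± 0.06 (SD, n = 3) in cKO libraries. These differed by -0.05, with p = 0.3 in a two-sided exact permutation test over libraries. The smallest p that 2 against 3 libraries allow is 0.1, so this test cannot pass 0.05 here.

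The openings themselves were weaker than elsewhere. At the 348 members open in all 5 libraries the median ATAC fold enrichment was 3.87 and 4.30 in the controls and 3.53, 3.98 and 4.45 in cKO 1, 2 and 3. The 7985 open unmarked regions had 5.38, 5.92, 4.75, 5.67 and 5.85 in that order. Members were lower in each library, and control and cKO values overlapped. The log2 difference was -0.47 ± 0.01 (SD, n = 2) in controls and -0.44 ± 0.06 (SD, n = 3) in cKO libraries, and the 0.02 between them had p = 0.7 in the same exact permutation test, with the same limit. Members were wider than open unmarked regions at each number of ATAC libraries, with medians of 1037.5 against 730 bp at 3 libraries and 1280 against 1066 bp at 5. A wider ATAC region meets the overlap rule more easily, so these widths are a description.

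**Figure D2:**
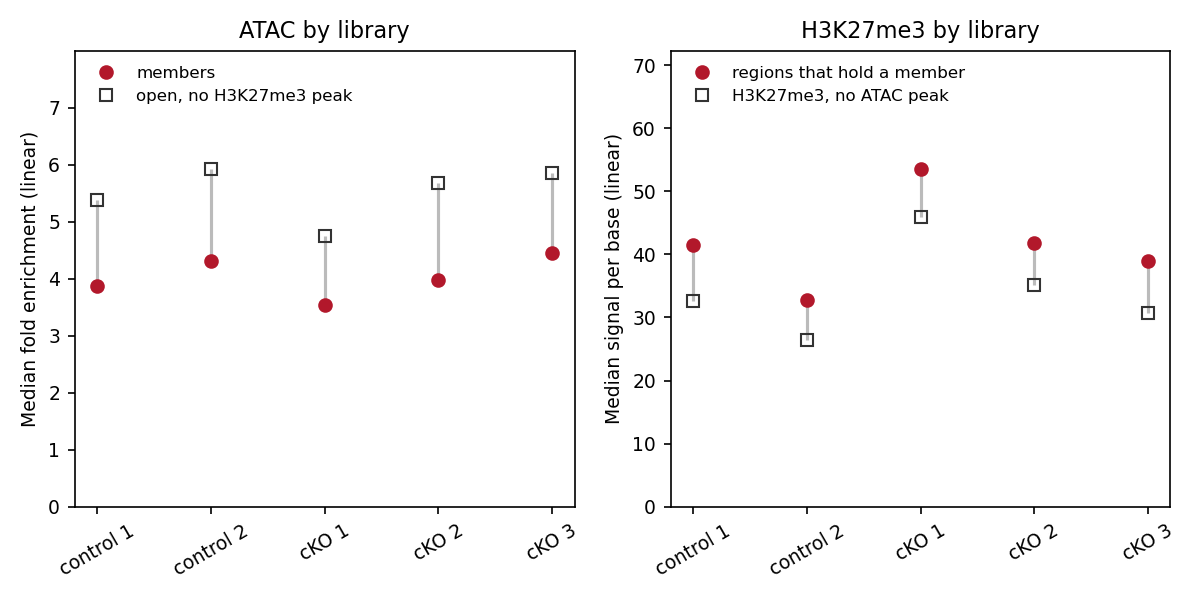
Median ATAC fold enrichment (left) and median H3K27me3 signal per base (right), on linear axes from 0, for each library; filled circles are members or the H3K27me3 regions that hold one, open squares are the comparison regions, and grey lines join the pair. In ATAC the circles lie below the squares in all 5 libraries, and in H3K27me3 above them.

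The members with the highest H3K27me3 signal included regions at genes of developmental transcription factors. Coordinates are on mm10, and gene bodies and starts are those of RefSeq on GRCm38.p6, which do not here separate exons from introns. Members found in all 10 libraries were ranked by the mean over libraries of their percentile among all merged ATAC regions with a value in that library, and chr1:100180094-100180419 in the body of Cntnap5b came first in both assays. It spans 326 bp, its ATAC fold was 15.2, 23.3, 18.6, 19.1 and 20.8 in control 1, control 2 and cKO 1, 2 and 3, its H3K27me3 signal was 234, 238, 541, 271 and 206, and it also had an IgG peak. It thus stood above the other members in every library, and the level of its IgG peak was not compared with theirs. Next came chr3:93286374-93292500 in Flg, the gene of the epidermal protein filaggrin, with H3K27me3 of 126, 89.9, 80.2, 100 and 139 and an ATAC fold of 3.00 to 3.16. The member chr5:106458649-106460401 lay 483 bp from the start of Barhl2, a homeobox gene of the nervous system. Its H3K27me3 signal was 71.4, 64.9, 128, 90.5 and 65.3 and its ATAC fold 3.87, 3.87, 3.79, 3.53 and 4.66. The peaks averaged for that signal were 12761, 13167, 2271, 2710 and 29528 bp long in the same order. Members in the bodies of Tfap2c (chr2:172550393-172551693) and Sox17 (chr1:4492243-4493684), which encode transcription factors of germ-cell specification and endoderm, were also among the highest.

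The most open members differed in how much of the mark they carried. After Cntnap5b, the highest ATAC folds among members in all 10 libraries were at the start of Hip1 (chr5:135544908-135545883), a gene of endocytosis, with 9.65 and 7.52 in the controls and 8.14, 10.4 and 6.80 in cKO 1, 2 and 3. Its H3K27me3 signal stood at a mean percentile of 45.6 over the libraries. Crnde, the gene of a long non-coding RNA, was high in both assays at chr8:92355917-92356681, with a mean H3K27me3 percentile of 90.7. Its ATAC fold was 6.89 and 7.88 in the controls and 6.57, 6.79 and 6.59 in the cKO libraries, so all 3 cKO values lay below the controls, by less than the gap between the controls. Ccno (chr13:112987242-112988362), Cbx8 (chr11:119040689-119041866) and Rprm (chr2:54084876-54085911) completed the list. Cbx8 encodes a Polycomb subunit that reads H3K27me3, and its ATAC fold was 5.41, 5.03, 6.01, 7.56 and 4.62 and its H3K27me3 signal 59.6, 54.2, 35.3, 43.6 and 57.9. At Hip1, Ccno, Cbx8 and Rprm the ATAC values of control and cKO libraries overlapped.

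Members lay at gene starts more often than marked regions without an ATAC peak did. H3K27me3 regions with an ATAC peak but no member were not placed in this way. A RefSeq gene start lay within 1000 bp of 758 members (46.2%), another 669 (40.8%) lay elsewhere in a gene and 212 (12.9%) between genes. The open unmarked regions had the same share at starts, 46.2%, but 34.6% elsewhere in genes and 19.2% between genes. The equal share held with the 1000 bp margin, whereas a start lay inside 614 members (37.5%) and 7446 open unmarked regions (43.6%). Marked regions without an ATAC peak had 17.7%, 51.1% and 31.2%. Among the 156 members found in all 10 libraries, 92 (59.0%) lay at starts. Members at starts were also the widest, with a median of 1261.5 bp against 1083 bp elsewhere in genes and 866 bp between genes. Their median H3K27me3 signal was 38.3, 36.2 and 33.1 per base in that order. Without ATAC cKO 1, 1521 of the members still had peaks in 3 ATAC libraries, and 46.8% of these lay at starts.

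The X chromosome was nearly devoid of them. It held 3 members among 555 open regions (0.541%), against 1636 of 19363 on the autosomes (8.45%), where the share per chromosome ran from 7.11% to 12.3%. The X chromosome also had few merged H3K27me3 regions, 112 in all and 39 in at least 3 libraries. The autosomes had 668 to 2139 in all and 260 to 901 in at least 3 libraries. Males of this genotype carry a single X chromosome, and the counts were not adjusted for copy number. Most members were isolated. With gaps of at most 20000 bp, 286 members (17.4%) formed 126 runs and 1353 stood alone. The run with the most members, chr4:88773500-88806865, held 12 in 33366 bp, one at each start of the interferon zeta genes Ifnz and Gm13272 to Gm13290. These are near-identical copies, so reads may not have been assigned to one of them, and the run is uncertain. The next were 4 members at chr6:52172373-52222031, with the starts of Hoxa3 and Gm15050, and 4 at chr15:102954590-103000109 with the start of Gm29905.

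Genes that control development and genes of spermatogonia lay at members in larger shares than all genes. In all, 854 of 26794 genes with a promoter entry (3.19%) had a start within 1000 bp of a member, 34.9% had one at an open unmarked region and 51.0% at none of the classes of region used here. Of the developmental transcription factors, 41 of 119 with an entry did (34.5%), 6 lay at an H3K27me3 region without an ATAC peak and 1 at an open unmarked region. Another 66 lay at an H3K27me3 region with an ATAC peak somewhere along it, a class added after seeing the data. That peak may lie away from the start, or at the start in fewer than 3 ATAC libraries. Of the signalling ligands and antagonists, 15 of 50 (30.0%) lay at members. Of the Hox genes, 3 of 22 did (Hoxa3, Hoxd10 and Hoxc4) and 18 lay at H3K27me3 regions with an ATAC peak somewhere along them. Of the spermatogonial genes, 10 of 29 (34.5%) lay at members, namely Gfra1, Id4, Kit, Crabp1, Egr4, Lin28a, Utf1, Upp1, Sohlh1 and Uchl1, and another 10 at open unmarked regions. Of the listed meiotic genes, 0 of 33 lay at members, a share near that of all genes, and 25 (75.8%) at open unmarked regions. The late spermatocyte marker Ovol2, which is not on that list, lay at a member. Spermiogenic genes had 1 of 34 at members (Hspa1l, 2.94%) and 17 at none of the classes (50.0%), both near the shares of all genes, and somatic testis genes 2 of 16 (Insl3 and Tcf21). Without ATAC cKO 1 the members kept 39 developmental transcription factors, 13 signalling genes and all 10 spermatogonial genes. These lists were chosen with earlier results known, and the counts are a description.

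**Figure D3:**
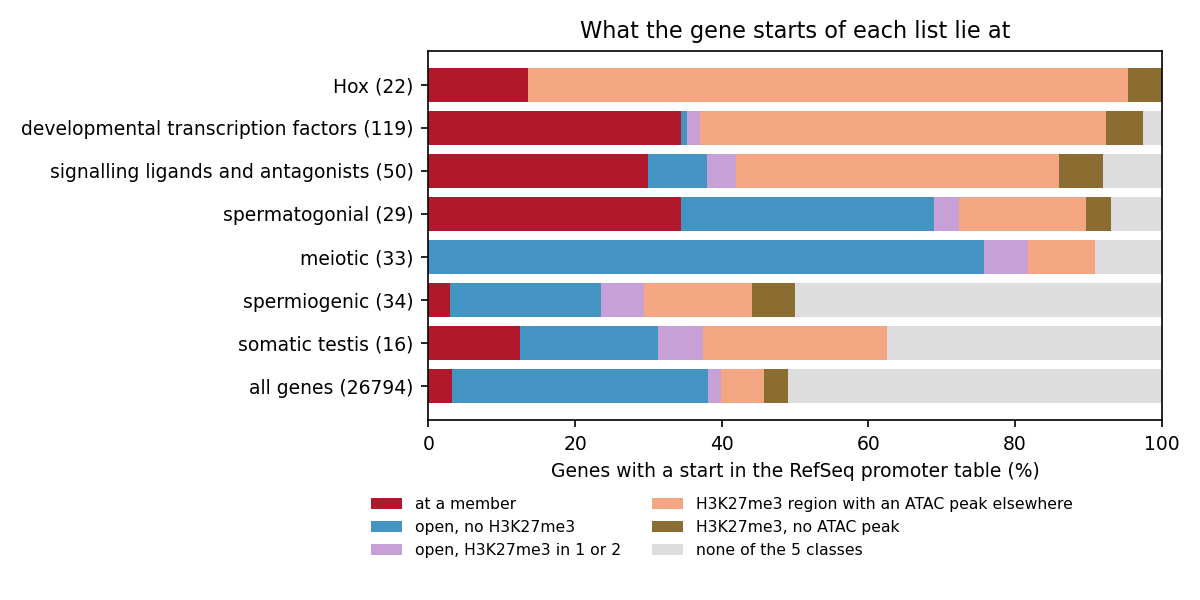
Share of the genes of each list, in percent of those with a start in the RefSeq promoter table (number in brackets), by what lies within 1000 bp of the start. Colours give the class of region. In the class with an ATAC peak elsewhere, a peak of fewer than 3 ATAC libraries may lie at the start. Developmental, signalling and spermatogonial genes have 34.5%, 30.0% and 34.5% at members, meiotic genes 0% and all genes 3.19%.

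The developmental genes with the most H3K27me3 differed in how often they were called open. Cdx2, the intestinal and trophoblast homeobox gene, had its start in chr5:147306169-147307254, with H3K27me3 signal of 130, 60.2, 112, 81.3 and 78.4 in control 1, control 2 and cKO 1, 2 and 3. An ATAC peak was called there in 3 libraries, at 3.35 in control 2, 2.99 in cKO 2 and 3.36 in cKO 3. Foxl2, a factor of the ovary, had H3K27me3 of 104, 79.3, 105, 68.0 and 83.7, and its ATAC folds did not exceed 3.11. Barhl2, described above, was open in all 5 libraries at 3.53 to 4.66. Vax1, Sox21 and Irx3 followed, with ATAC folds of up to 3.76, 3.91 and 4.09. Hoxd10 had H3K27me3 of 103, 64.3, 92.7, 79.7 and 81.3 and ATAC folds of 3.12, 3.27, 3.28 and 2.79, with no peak in cKO 1. Among the ligands, Wnt16 had H3K27me3 of 46.9 and 41.1 in the controls and 68.5, 73.3 and 82.9 in the cKO libraries. The groups did not overlap at Wnt16, which was named for its high H3K27me3, and no H3K27me3 region was called in the test across regions. These values are not centred. Over all tested regions, uncentred values were higher in cKO, with a median log2 difference of 0.27. The share of all regions whose groups did not overlap was not computed. Grem1, a BMP antagonist, Bmp8b, Jag2, Fgf5 and Dll4 completed the signalling genes, and the Dll4 region also had an IgG peak.

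The spermatogonial genes differed from each other in both assays. Gfra1, the GDNF co-receptor of undifferentiated spermatogonia, had the most H3K27me3 of the list, with 69.7, 50.8, 76.3, 55.9 and 77.3 in the 5 libraries in the same order, and an ATAC peak in 3 libraries at 3.20 to 3.40. Id4, a factor of spermatogonial stem cells, had 48.2, 43.2, 79.3, 39.0 and 54.5, and ATAC folds of 3.80, 4.34, 3.40 and 4.12, with no peak in cKO 1. Kit, the surface receptor used for the sort, was open in all 5 libraries at 4.37, 4.63, 4.88, 4.41 and 4.38. It was marked in 3, at 37.0 in control 1, 112 in cKO 1 and 43.1 in cKO 2, with no peak in control 2 or cKO 3. Uchl1, a ubiquitin hydrolase of spermatogonia, was open at 4.87, 5.73, 3.92, 4.84 and 5.59 and marked at 27.8, 19.95 and 29.0 in control 1, control 2 and cKO 3. Crabp1, a retinoic acid binding protein, had an ATAC peak in 3 libraries, at 3.86 in control 2, 4.21 in cKO 2 and 3.16 in cKO 3, and was marked in all 5 at 43.9, 37.3, 68.2, 44.5 and 32.9. Egr4 and Lin28a were likewise open in 3 libraries and marked in 4 and 5. Kit and Uchl1 were thus called open in more libraries and marked in fewer than the other 5 spermatogonial genes named here. Those 5 were named for high H3K27me3 within the list, and Utf1, Upp1 and Sohlh1 were not compared.

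RNA was not used by the rule. Cells of the single-cell libraries with at least 3000 UMIs were clustered, giving 10988 control and 8258 cKO cells, and 1 cluster of 283 and 232 cells was called spermatogonia-like from its markers. The summed counts of that cluster were 1983483 and 1381822 UMIs. Of 777 genes at members that the files list, 131 (16.9%) reached 10 CPM in the control library and 144 (18.5%) in the cKO library, with medians of 1.01 and 1.45 CPM. Of 8511 genes at open unmarked regions, 72.7% and 72.8% did, with medians of 27.7 and 26.8 CPM. Genes at marked regions without an ATAC peak had 8.70% and 8.19%. Genes at open regions marked in 1 or 2 libraries lay between, at 31.1% and 32.6%. Genes at H3K27me3 regions with an ATAC peak, but no member at the start, had 11.8% and 11.1%. Genes at none of these 5 classes had 13.6% and 13.03%. In both libraries the share at members was thus nearer to those of the other marked classes, and of genes at none of the classes, than to that of open unmarked genes. Markers of other classes also had UMIs in this cluster, where the 8 listed elongating spermatid markers summed to 12331 and 7863 CPM. Background RNA or mixed droplets can bring a gene to 10 CPM, and their share here was not tested. With 1 library per genotype no test was possible. The order was the same without ATAC cKO 1, where the genes at the remaining members had 17.1% and 18.9%. In the other classes of the control library, from early spermatocyte-like to Sertoli-like cells, 10.0% to 16.1% of genes at members reached 10 CPM.

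**Figure D4:**
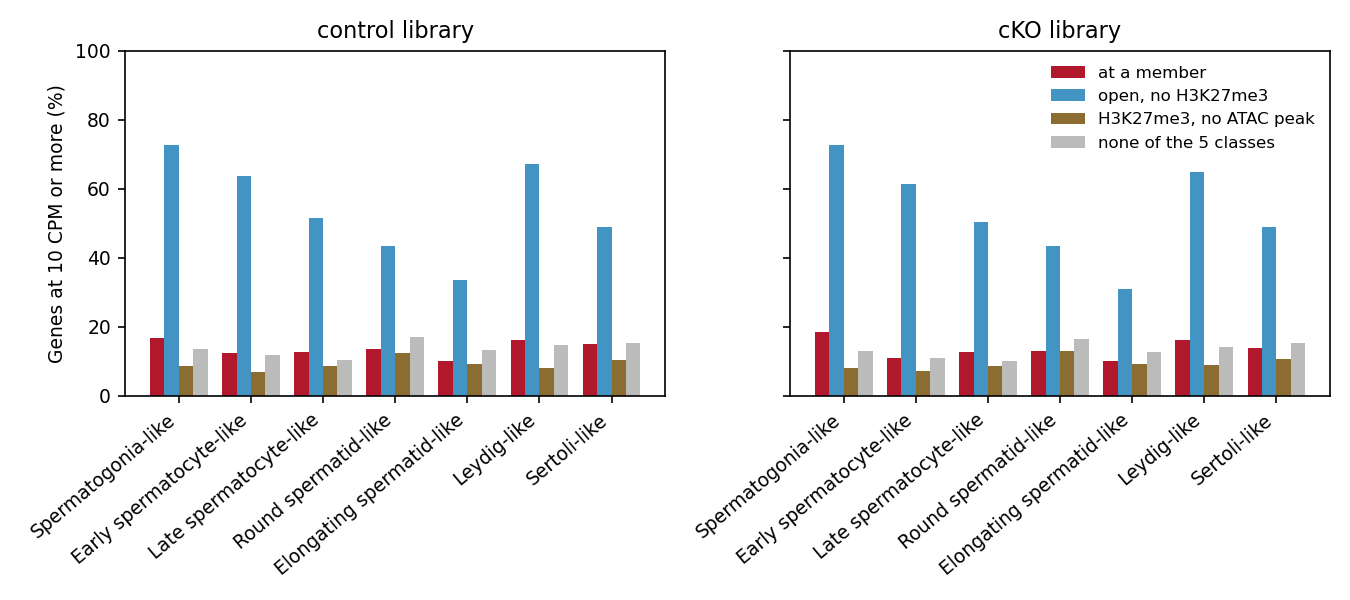
Share of genes at 10 CPM or more, in percent, in each cell class of the control (left) and cKO (right) single-cell library, for genes whose start lies at a member, at an open unmarked region, at an H3K27me3 region without ATAC peak, or at none of the 5 classes. These also include open regions marked in 1 or 2 libraries, and H3K27me3 regions with an ATAC peak but no member at the start (not drawn). In spermatogonia-like cells of the control library the bars stand at 16.9% for members and 72.7% for open unmarked regions.

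Among members, the share of genes with RNA varied with the number of libraries that had a peak. In the control library, 22.2% of the genes at members marked in 3 H3K27me3 libraries reached 10 CPM, 18.8% of those marked in 4 and 13.6% of those marked in 5. By openness the shares were 14.5%, 14.4% and 23.3% at 3, 4 and 5 ATAC libraries. The genes with the most RNA were Uchl1, with 546 CPM in the control library (95% exact Poisson interval 514 to 580, counting error only) and 754 (709 to 801) in the cKO library, Crabp1 with 195 and 224, Tcfl5 with 176 and 120, Cdkn2a with 173 and 221, Kit with 143 and 122, and 4930447C04Rik with 132 and 108. Kit was higher in Leydig-like cells, with 304 and 205 CPM, so the receptor used for the sort was not restricted to spermatogonia-like cells. Kit, Uchl1, Crabp1, Gfra1 and Sohlh1 were among the markers that named the cluster, so their levels there are no finding. Tcfl5 encodes a transcription factor of meiotic cells and had 656 CPM in late spermatocyte-like cells. In early spermatocyte-like cells of the control library, 4930447C04Rik had 259 CPM. Cdkn2a encodes cell cycle inhibitors and stayed at 15.2 CPM or less in the other classes of the control library.

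The developmental and signalling genes named for their H3K27me3 had little RNA, with 1 exception. Foxl2, Vax1, Sox21, Wnt16 and Fgf5 had 0 UMIs in the spermatogonia-like cells of both libraries, and the exact Poisson upper limit was 1.86 CPM in the control and 2.67 CPM in the cKO library. Cdx2 had 2 and 0 UMIs and Hoxd10 had 1 and 1. Jag2, a Notch ligand, was that exception at 40.8 CPM (32.4 to 50.8) in the control and 26.8 (18.9 to 36.9) in the cKO library. Among the spermatogonial genes, Egr4 had 24.7 and 28.9 CPM and Lin28a 20.7 and 28.2, beside the higher Crabp1 and Kit, and the spermiogenic gene Hspa1l had 65.0 and 36.9. Gfra1 had 7.06 and 7.24 CPM, and Id4 14.6 and 10.9, while Id4 reached 145 CPM in early spermatocyte-like cells of the control library. Several members lay at genes whose RNA was highest in another class. Insl3, a hormone of Leydig cells, had 3.03 and 6.51 CPM in spermatogonia-like cells and 9785 CPM in Leydig-like cells of the control library, and Fabp3 had 6.05 and 28.9 CPM against 8303 CPM there. Mesp1 had 118 and 103 CPM in spermatogonia-like cells and 1075 CPM in late spermatocyte-like cells of the control library. Which cells beside spermatogonia the sorted chromatin samples held was not tested.

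The chromatin at members was then compared between cKO and control libraries. For H3K27me3, limma was fitted to the log2 signal per base, centred per library, of 4320 regions marked in all 5 libraries, of which 1001 held a member. No region passed an adjusted p of 0.05 (0% called), and 0 of the 1001 did. Regions without a peak in some library were not fitted, so a peak gained or lost between the groups could not be called. At an unadjusted p under 0.05 there were 169 regions (3.91%), among them 42 that held a member (4.20%), 23 lower and 19 higher in cKO. The median log2 difference was -0.05 at regions with a member, with quartiles of -0.22 and 0.13, and -0.03 over all regions. Without centring the medians were 0.25 and 0.27, a shift that applied to all regions. At an unadjusted p under 0.05 there were then 54 regions with a member (5.39%), near the share of all regions (247, 5.72%). The 54 were all higher in cKO, so the direction at members depends on the scaling, which the sources used here do not give. The smallest adjusted p by limma was 0.946.

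The regions with the lowest unadjusted p all missed the threshold. A choice by low p favours groups that do not overlap. At chr13:99893832-99905740, with the start of the neuropeptide gene Cartpt, H3K27me3 signal was 25.4 and 23.0 in the controls and 49.5, 65.0 and 58.4 in the cKO libraries. These uncentred groups did not overlap, and the centred log2 difference was 0.95 ± 0.28 (SE, adjusted p by limma = 0.946). At chr7:45855466-45859518 in Grin2d, a glutamate receptor subunit, it was 45.9 and 36.1 in the controls and 42.3, 20.4 and 17.5 in the cKO libraries. Here cKO 1 fell between the controls, and the log2 difference was -1.02 ± 0.26 (SE, adjusted p by limma = 0.946). Trim9 (chr12:70344626-70350951) at -0.69 and H2-T-ps (chr17:36108995-36113287) at 0.74 were the other 2 of the 4 named.

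ATAC fold enrichment gave no call either. Of 8644 regions open in all 5 libraries, 0 passed an adjusted p of 0.05 by limma (0% called), and so did 0 of the 348 members among them. Regions with a peak in fewer libraries were again left out of the fit. At an unadjusted p under 0.05 there were 204 regions (2.36%), with 6 members (1.72%), 3 in each direction. The median log2 difference was 0.03 at members and 0.02 over all regions, and -0.03 and -0.05 without centring. The member with the lowest p among those higher in cKO, between genes at chr8:95517436-95518325, had folds of 6.84 and 8.15 in the controls and 9.76, 12.1 and 9.31 in the cKO libraries. The groups did not overlap, and its log2 difference was 0.53 ± 0.19 (SE, adjusted p by limma = 1.00). Of the members lower in cKO, chr17:25432539-25434668 in the body of the calcium channel gene Cacna1h had the lowest p, with folds of 4.22 and 4.30 in the controls and 2.69, 3.59 and 3.01 in the cKO libraries. These groups did not overlap either, and the log2 difference was -0.40 ± 0.18 (SE, adjusted p by limma = 1.00). In the body of the collagen gene Col1a1, chr11:94936914-94937778 had 4.97 and 6.26 against 2.77, 3.34 and 5.68, so cKO 3 lay between the controls. All these members were picked for a low p, which favours groups that do not overlap.

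The ATAC result rested on cKO 3, the library with the most peaks. Without it, limma called 186 of 8738 regions (2.13%), 20 lower and 166 higher in cKO, and 3 of 355 members. These were chr5:64247625-64248428 at the start of Gm46913 and in Tbc1d1, higher by 0.85 on the log2 scale, Col1a1 at -0.75 and chr15:99595976-99596656 in Gm34765 at -0.73. The region at Gm46913 had folds of 3.11 and 3.53 in the controls and 5.67 and 5.32 in cKO 1 and 2 and no peak in cKO 3, so it entered the fit only when cKO 3 was left out. At the region in Gm34765 the folds were 4.86 and 5.19 in the controls, 2.89 and 2.67 in cKO 1 and 2, and 7.36 in cKO 3. There cKO 3 lay on the other side of the controls from its group. Without cKO 1 there were 0 calls, with 681 members tested. The 3 members were named after their values were seen.

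In spermatogonia-like cells, RNA of genes at members was compared between the 2 single-cell libraries. Of 8974 genes with at least 20 UMIs over both libraries, 136 (1.52%) were at least 2-fold higher and 209 (2.33%) at least 2-fold lower in the cKO library in spermatogonia-like cells, on the log2 scale with 1 CPM added. Of 202 genes at members that passed this filter, 13 (6.44%) were higher and 6 (2.97%) lower, and the median log2 difference was 0.05 against -0.08 over all genes. The 13 higher ones, in order of their difference, were Cldn5, a tight junction gene of endothelium, with 2 and 43 UMIs, Timp3 with 9 and 69, Pltp with 3 and 28, Fabp3 with 12 and 40, Cxcl12 with 5 and 19, Hspa1a with 9 and 30, Ckb with 13 and 37, Amigo1 with 5 and 16, the basement membrane genes Col4a1 with 17 and 40, Col4a2 with 12 and 29 and Nid1 with 8 and 16, then Egfl7 with 46 and 67 and Kcnmb4os2 with 18 and 27. The 6 lower ones were Artn, Esyt3, Galntl6, Dzip1, Frmd4b and Chn2. The 5 listed peritubular myoid markers summed to 4 UMIs in the control and 205 in the cKO library (2.02 and 148 CPM), with Cnn1, Des and Myh11 at 0 in the control. The 5 endothelial markers summed to 11 and 42 UMIs. Germ-cell markers of later stages were lower in the cKO library in the same cells, with 12331 and 7863 CPM for elongating spermatids, 1444 and 1094 for late spermatocytes and 428 and 302 for round spermatids, and their part in the result was not tested. Leaving out the 15 control and 12 cKO cells with a UMI of either list, an alternative chosen after seeing the data, left 3 of 176 genes at members higher (1.70%, against 0.715% of 8670 genes) and 4 lower (2.27%, against 2.19%). Cldn5 then had 2 and 2 UMIs and Timp3 9 and 3. When cells with at least 2000 UMIs were clustered instead, the myoid markers summed to 4 and 4 UMIs in spermatogonia-like cells.

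Some differences stayed without those cells. Fabp3, a fatty acid binding protein, had 7 and 34 UMIs, and Galntl6 had 74 and 26. Fabp3 had 8303 and 10276 CPM in Leydig-like cells. In all spermatogonia-like cells the listed Leydig markers summed to 37 and 40 UMIs (18.7 and 28.9 CPM), and their part in the Fabp3 difference was not tested. Chn2, a Rac regulator, had 114 and 39 UMIs, and its log2 difference was -1.02 with all cells and -1.05 without those cells. These compare 2 libraries and not 2 genotypes, since each genotype had 1.

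Promoter sequence placed genes at members near the open unmarked genes. Over 300-base windows of RefSeq, 1 per gene, the median GC content was 63.2% for 854 genes at members, 61.3% for 9350 at open unmarked regions, 53.7% for 853 at marked regions without an ATAC peak and 47.0% for 13671 at none of the 5 classes. The median ratio of observed to expected CG was 0.67, 0.79, 0.28 and 0.21 in that order, and 60.7%, 77.6%, 17.4% and 8.56% of promoters had a ratio of at least 0.6. Members were thus as rich in G and C as open unmarked promoters, with fewer CG dinucleotides. The letters GGGCGG, counted on either strand, occurred in 62.6% of promoters at members, 66.8% at open unmarked regions and 36.6% of all promoters. TATAAA occurred in 9.02%, 5.98% and 14.1%, CCAAT in 35.0%, 39.9% and 38.1%, and CACGTG in 9.37%, 11.1% and 7.35%. A match is a description of the letters and not a bound site. Of the genes at members whose ratio was at least 0.6, 18.8% reached 10 CPM in control spermatogonia-like cells, and 13.7% of the others did.

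**Figure D5:**
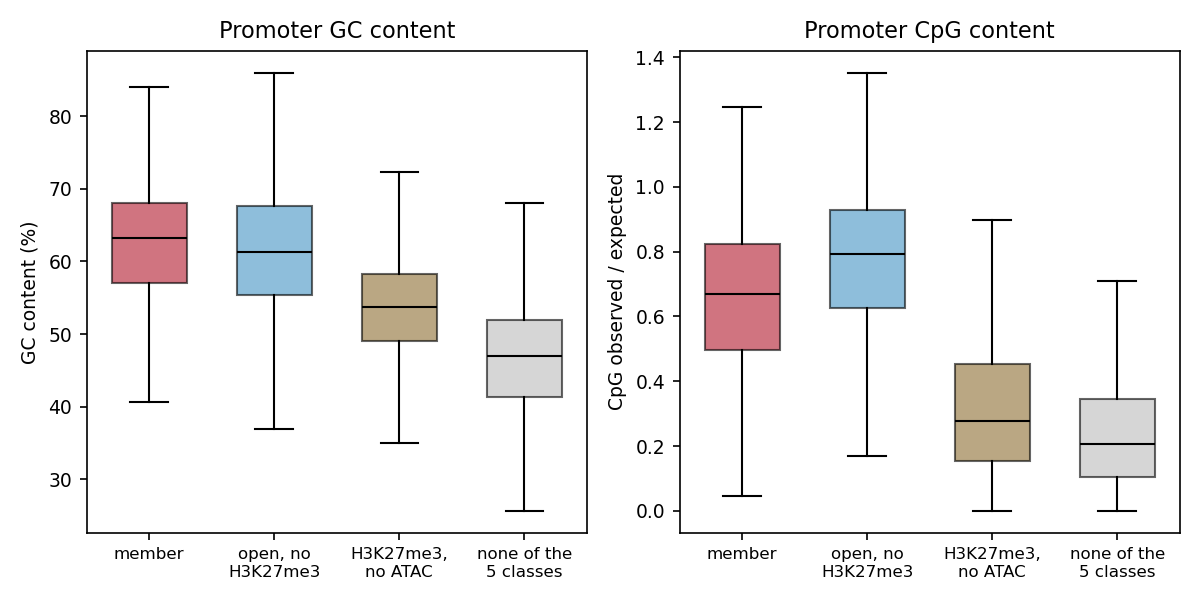
GC content in percent (left) and ratio of observed to expected CG dinucleotides (right) of 300-base promoter windows, by what the gene start lies at, with the same classes as for RNA; boxes give the quartiles and the line the median, whiskers reach the last value within 1.5 box lengths, and values beyond are not drawn. Members have a median GC content of 63.2% and a ratio of 0.67, beside 61.3% and 0.79 for open unmarked promoters.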

How the data were processed

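The authors deposited ATAC peaks called per library, which hold a score, a fold enrichment (ratio) and -log10 p and q values, and H3K27me3 and IgG regions whose total and maximum signal the authors deposited with no stated scaling. The submitters' processing notes name cutadapt, Bowtie2 and MACS2 for ATAC-seq, cutadapt, Bowtie2, SAMtools, deepTools and SEACR for CUT&Tag, and mm10. The single-cell UMI counts are as deposited, from Cell Ranger per the file headers.

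Peaks were merged with bedtools 2.31.1. ATAC level was the highest fold of a library's peaks in a region. H3K27me3 level was the mean signal per base over the full length of that library's peaks that overlapped the region. limma 3.58.1 in R 4.3.3 compared log2 levels, centred on each library's median, over all regions with a peak in all 5 libraries, with Benjamini-Hochberg adjustment. On simulated data it recovered 43% (H3K27me3) and 55% (ATAC) of changes of 1 on the log2 scale. For changes of 2 it recovered 85% and 94%. Many changes of 1 could thus be missed. Cells with at least 3000 UMIs, 500 genes and at most 10% mitochondrial UMIs were clustered with scanpy 1.11.5, and doublets were not called; 27 barcodes occurred in both libraries. A gene was assigned to a region within 1000 bp of a RefSeq start. The members and the gene lists were chosen with earlier results of these data known. Named regions were the 6 highest in each assay among members found in all 10 libraries, the 2 of lowest p per direction in each test and the 3 longest runs; 1 of these regions is not reported here. Named genes were up to 6 per list by H3K27me3 and the 6 with the highest CPM in spermatogonia-like cells or in any other class. The alternatives changed the overlap, the number of libraries, peak thresholds, centring, measure, filter, distance and UMI minimum, and left out each library. Bulk RNA-seq, whose transcript IDs no table used here pairs with genes, was not used, so the planned edgeR comparison was not run.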

Additional observations from a re-analysis of the deposited data

How the results depend on the processing

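The count of members depended on the rule and on 2 ATAC libraries. It was 656 at 4 of 5 libraries in both assays, 156 at 5 of 5, 697 with ATAC peaks of -log10 q of at least 3, and 864 to 1573 when 1 library was left out, the lowest without ATAC cKO 3 (864) and ATAC control 2 (872). It was 1432 where the mark covered at least 50% of the region, 1144 with the upper 50% of the H3K27me3 peaks and 1571 without IgG regions. The ATAC comparison gave 264 calls among 8644 regions (31 lower, 233 higher) with a replicate block, and 5 of the 348 members tested were called. At an unadjusted p under 0.05 by limma, the block had 16.9% of all regions and 11.5% of members. With 1 library left out there were 0 to 186 calls, and the cause was not tested. The labels give these numbers no pairing, and cKO 3 has no partner in the block. H3K27me3 gave 0 calls with the replicate block and under every other alternative run. The ATAC difference between cKO and control in the level of members relative to open unmarked regions turned to -0.045 (exact permutation p = 0.3) over regions open in at least 3 libraries, and ran from 0.0035 to 0.06 with 1 library left out; for H3K27me3 it ran from -0.09 to -0.04. The share of open unmarked genes at 10 CPM was 69.2% (control) and 69.1% (cKO) with starts within 5000 bp, and 71.5% (cKO) with a minimum of 2000 UMIs. With that minimum the share of genes at members was 17.4% (control) and 16.7% (cKO), so the order of the libraries turned. Without cells with an endothelial or myoid UMI, 3 genes at members were at least 2-fold higher. Positions changed by less than 1 percentage point without IgG regions. The planned comparison of testis RNA and its alternatives were not run. Depth is unknown for the peak lists, and a region without a peak is not shown to lack the mark.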
